A study of Mus musculus with 32 samples.

Results

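The 9 genes described here, Ifit1, Ifit2, Ifit3, Irf7, Isg15, Oasl2, Rsad2, Usp18 and Bst2, belong to the interferon-stimulated genes of the mouse. They were chosen by name, as rows of the deposited count table, and are 9 of its 54532 genes. Kidneys of wild-type C57BL/6 mice, aged 6 to 8 weeks, were profiled by bulk RNA-seq before cisplatin (Day 0) and 2, 3 and 5 days after an intraperitoneal dose of 20 mg/kg, in males and in females. Each of the 8 groups of sex and day held 4 mice, which gave 32 libraries. No group carried a transgene, a deletion or a second agent, and each library was labelled as 1 mouse. The labels list cisplatin as the treatment of the Day 0 females but give none for the Day 0 males, and both were taken here as untreated because the study describes Day 0 as healthy. Against Day 0, Ifit2 rose at Day 3 in both sexes (log2 fold change 0.76 in males and 0.80 in females), and Ifit2, Ifit3 and Oasl2 rose at Day 5 in males (1.23, 1.46 and 1.55). The other differences of the members from Day 0 did not pass edgeR's test, though some passed with DESeq2 or with limma's voom.

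Cells that sense foreign or misplaced nucleic acid secrete type I interferons, which act through a receptor shared by most nucleated cells. The receptor's kinases activate transcription factors that bind, together with IRF9, a short DNA motif, the interferon-stimulated response element, in front of many interferon-induced genes. Most products of these genes restrict viruses, and in kidneys without infection they are commonly read as a sign that interferon signalling was active. A bulk library cannot tell fewer cells of a type from less RNA per cell.

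The promoters of the members were read from RefSeq (GRCm38.p6) in windows from 250 bases before to 50 bases after each start, to show how many carry the motif that interferon signalling uses. The letters searched were GAAANNGAAA and, for the other strand, TTTCNNTTTC, where N is any base. They occurred in the windows of 5 of the 8 members that had one, against 3.99% of 27025 genes and 15 of 37 other interferon-induced genes that had a window. Ifit2, Irf7 and Oasl2 held no match and Usp18 had no window. The stretches below run from 160 to 41 bases before the start, 5′ to 3′ on the strand of the gene, with the matches in capitals. They are chr19:34640729-34640848 (plus strand) for Ifit1, chr19:34583369-34583488 (plus) for Ifit3, chr4:156200859-156200978 (minus) for Isg15, chr12:26456493-26456612 (minus) for Rsad2 and chr8:71537513-71537632 (minus) for Bst2.
Ifit1: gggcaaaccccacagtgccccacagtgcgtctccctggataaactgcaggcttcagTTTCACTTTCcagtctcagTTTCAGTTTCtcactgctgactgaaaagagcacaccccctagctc
Ifit3: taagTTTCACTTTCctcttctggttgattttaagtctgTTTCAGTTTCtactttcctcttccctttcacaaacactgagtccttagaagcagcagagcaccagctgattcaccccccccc
Isg15: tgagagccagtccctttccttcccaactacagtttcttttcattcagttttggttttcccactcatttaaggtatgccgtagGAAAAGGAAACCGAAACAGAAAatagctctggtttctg
Rsad2: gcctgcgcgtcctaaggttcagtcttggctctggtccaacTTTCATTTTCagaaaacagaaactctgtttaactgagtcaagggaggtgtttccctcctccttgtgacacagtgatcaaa
Bst2: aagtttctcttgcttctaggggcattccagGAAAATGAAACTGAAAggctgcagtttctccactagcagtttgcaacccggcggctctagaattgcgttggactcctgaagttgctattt
The matches of Isg15 and of Bst2 overlapped into 1 run of 3 and of 2, whereas those of Ifit1 and of Ifit3 stood apart. A match is a description of the letters and was not tested as a binding site.

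Counts were scaled to a common library size, as CPM, by the TMM method, which sets each library's effective size from the bulk of its genes, and each comparison was tested with edgeR's quasi-likelihood test over all genes that passed a filter on low counts. All 9 members passed that filter in all 17 comparisons. A gene was called differentially expressed where its Benjamini-Hochberg adjusted p was under 0.05 and its log2 fold change exceeded 1.5 in size, which is the full rule below. Genes that met the p alone are given beside it, and the verbs rose and fell are used only for genes with an adjusted p under 0.05. Nothing in the labels says that the 4 mice of a group came from separate cages or litters, so the p-values measure the spread between these mice. The 3 comparisons with Day 0 within a sex share their Day 0 mice.

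Library totals lay between 16502107 and 35961325 counts. Transcripts of the mitochondrial genome took 4.49 to 24.0% of the counts at Day 0, 2 and 3, but 42.5, 78.9, 79.8 and 79.7% in the 4 male Day 5 libraries and 31.6, 77.9, 22.2 and 9.30% in the 4 female ones. Xist, the RNA of the inactive X chromosome, went against 1 label: the library labelled male Day 5 mouse 1 had it at 4153 counts beside 387 counts of Y-linked genes. Smaller mixed signals occurred at Day 0, with 221 Y-linked counts in female mouse 1 and 5 to 66 in the other 3 females, where the females of Day 2, 3 and 5 had 0, and with up to 242 Xist counts in Day 0 males and 260 in male Day 5 mouse 2. Female Day 0 mouse 2 stood apart through liver transcripts, with a summed 11099 CPM over 6 hepatocyte markers against 57.2 to 416 CPM in the other 3 mice of its group.

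Per length of transcript, the members spanned a wide range of levels in the kidney. Median deposited FPKM (fragments scaled to the deposited length of the gene and to a rescaled, effective size of the library rather than its total) over the 32 libraries was 31.4 for Bst2, 15.2 for Ifit3, 8.84 for Isg15, 5.74 for Irf7, 4.63 for Rsad2, 3.54 for Ifit1, 3.17 for Ifit2, 1.63 for Oasl2 and 1.47 for Usp18. Neighbours in this order overlapped over the libraries. The deposited length of Irf7, 3776 bases, equals the whole span of the gene, so that introns of its spliced form count toward the length behind its FPKM. Irf7 shares 45 exonic bases with Phrf1 on the opposite strand and Usp18 shares 124 with a long non-coding RNA, Gm44148. The strand setting of the counting is not given in the sources used here, so reads there cannot be told apart. All 9 members were counted in every library, from 26 counts of Usp18 in a male Day 5 mouse to 3577 counts of Bst2 in a female Day 0 mouse.

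**Figure D1:**
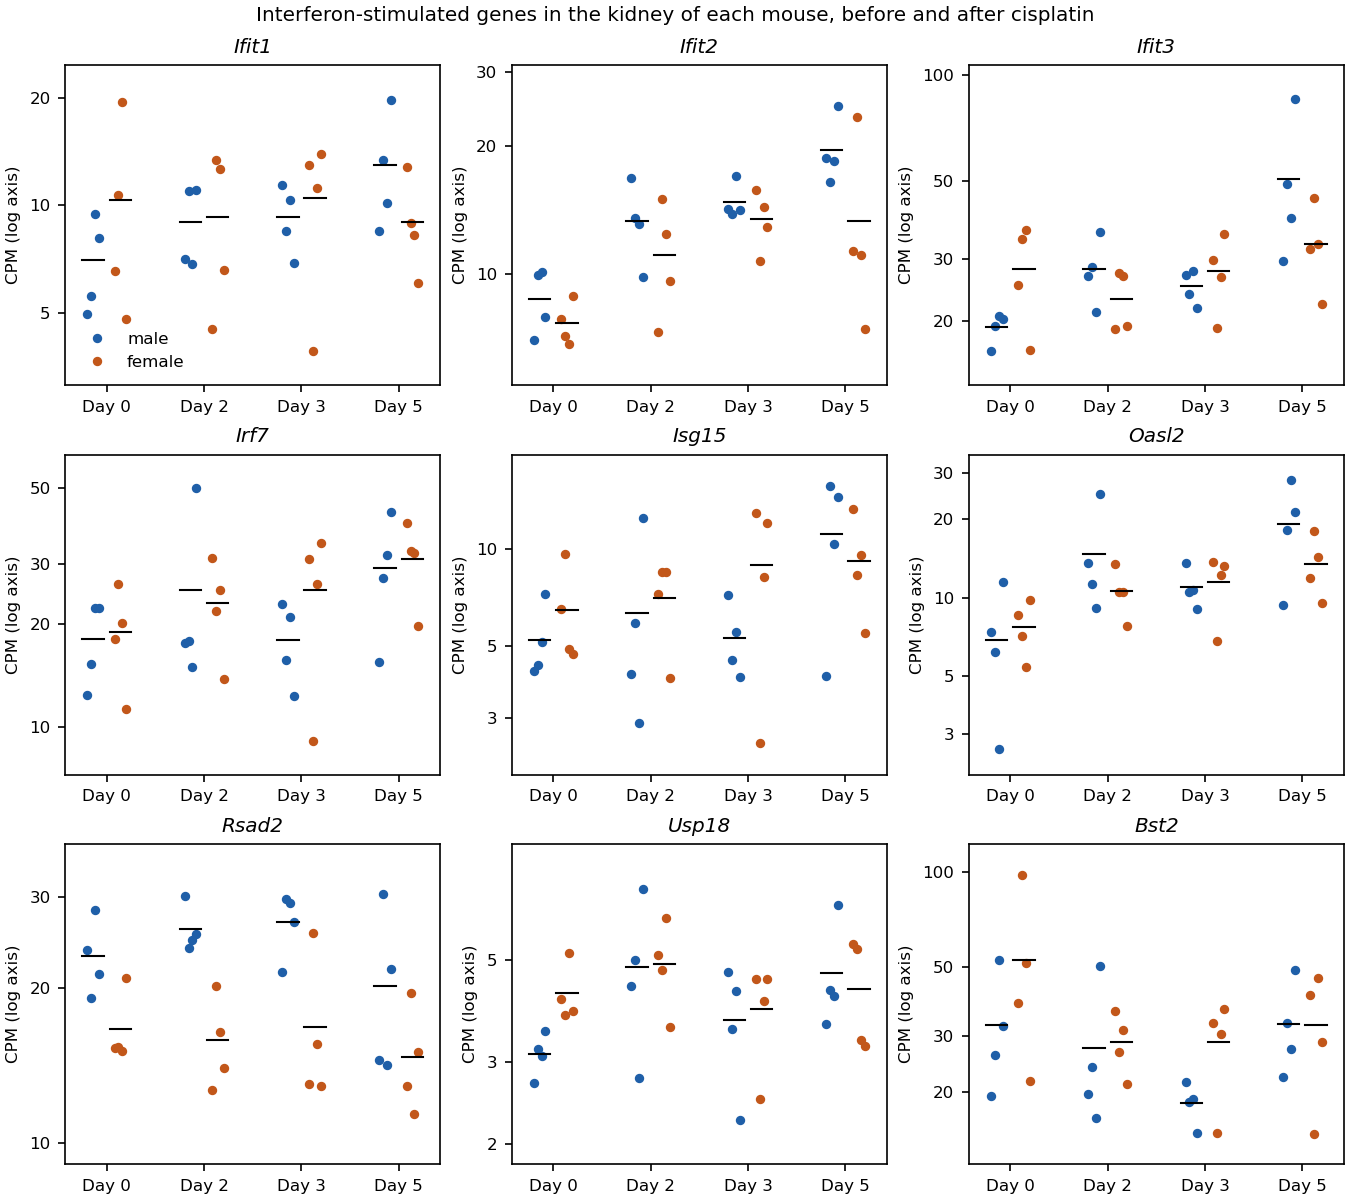
Level of each of the 9 genes in each mouse, as TMM-scaled CPM on a log axis, by day and sex, with 1 point per mouse (n = 4) and a bar at the arithmetic mean. The Day 3 points of Ifit2 lie above its Day 0 points in both sexes, and male points of Rsad2 lie mostly above female points.

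The IFIT proteins bind viral RNA that lacks the host's cap methylation, or hold back translation, and their genes lie together on the plus strand of chromosome 19 (GRCm38): Ifit2 (ENSMUSG00000045932) at 34550694-34576419, Ifit3 (ENSMUSG00000074896) at 34583531-34588731 and Ifit1 (ENSMUSG00000034459) at 34640871-34650009. Ifit2 was the member that changed in most comparisons. In males its CPM was 7.00, 9.95, 10.1 and 7.94 at Day 0, 16.9, 13.6, 13.1 and 9.84 at Day 2, 14.2, 13.9, 17.0 and 14.2 at Day 3, and 18.7, 16.5, 18.5 and 24.8 at Day 5. Every male of Day 3 and Day 5 lay above every male of Day 0, a full separation that 38.3 and 27.3% of all genes showed, whereas at Day 2 mouse 4 lay within the Day 0 range. Ifit2 rose by 0.76 on the log2 scale at Day 3 (SE 0.163, adjusted p = 0.0169, 4 of 4 mice higher) and by 1.23 at Day 5 (SE 0.223, adjusted p = 0.011, 4 of 4 mice higher), both under the 1.5 minimum. The Day 5 rise passed in 8 of 8 fits without 1 mouse, and the Day 3 rise in 7, with an adjusted p of 0.0651 without male Day 3 mouse 3. At Day 2 its difference was 0.62 (95% interval 0.14 to 1.10) and did not pass.

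In females Ifit2 stood at 7.85, 7.15, 6.86 and 8.90 CPM at Day 0, at 7.33, 15.0, 12.4 and 9.64 at Day 2, at 15.8, 10.7, 14.4 and 12.9 at Day 3, and at 11.4, 23.5, 11.1 and 7.42 at Day 5. The Day 3 females lay wholly above the Day 0 females (19.3% of all genes were separated in this way), and those of Day 2 and Day 5 did not. The Day 3 rise was 0.80 on the log2 scale (SE 0.192, adjusted p = 0.049, 4 of 4 mice higher). That p is close to the threshold: leaving out 1 mouse at a time, the rise stayed between 0.71 and 0.89 but the adjusted p ran from 0.00755 to 0.169 and passed in 1 of 8 fits, that without female Day 0 mouse 4. In that fit 39.1% of all genes passed on p alone, against 5.54% with all mice. At Day 5 the female difference was also 0.80, with an interval of 0.02 to 1.58 and adjusted p = 0.311. Female Day 5 mouse 2, the highest, was also the female library with 77.9% mitochondrial counts, and without it the difference was 0.36.

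In males Ifit3 rose at Day 5. Its male CPM was 16.5, 19.4, 20.8 and 20.3 at Day 0, 26.9, 28.5, 21.3 and 35.9 at Day 2, 27.0, 23.9, 27.8 and 21.9 at Day 3, and 29.7, 49.0, 39.3 and 85.1 at Day 5. The males of each day after cisplatin lay above all males of Day 0 (24.4% of all genes were separated at Day 2), but with edgeR the difference passed at Day 5 alone, where it was 1.46 (SE 0.310, adjusted p = 0.0154). The adjusted p was 0.0885 at Day 2 and 0.0611 at Day 3, and the Day 3 difference passed in 1 of 8 fits without 1 mouse, that without male Day 0 mouse 3 (0.43, adjusted p = 0.0213). Of 8 other settings, DESeq2's Wald test and voom passed Ifit3 at Day 2 (adjusted p down to 0.0069), and these and a minimum of 10 counts passed it at Day 3 (down to 0.00324). Male Day 5 mouse 4 carried the highest value, and without it the rise was 1.09. The adjusted p stayed under 0.05 in 7 of 8 fits without 1 mouse and was 0.051 without male Day 0 mouse 1. Females showed 25.3, 34.3, 36.3 and 16.6 CPM at Day 0 and 32.1, 44.8, 33.2 and 22.5 at Day 5, which overlapped (difference 0.24, interval -0.41 to 0.89). The male change exceeded the female one by 1.21 at Day 5 (interval 0.29 to 2.13, adjusted p = 0.203), so that a difference between the sexes did not pass. Reads of Ifit3 may be split with its near copy Ifit3b, which lies beside it and rose by 1.56 in males at Day 5 (adjusted p = 0.012).

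Ifit1 varied widely within groups. Its lowest and highest mice differed 4.06-fold among Day 0 females (4.80 to 19.5 CPM) and 3.56-fold among Day 3 females (3.91 to 13.9 CPM). In males it was 7.01 ± 2.13 CPM (SD, n = 4) at Day 0 and 12.9 ± 5.00 at Day 5, a difference of 0.94 with an interval of 0.18 to 1.69 and adjusted p = 0.0775. It passed in 2 of 8 fits without 1 mouse, those without Day 0 mouse 3 (1.13, adjusted p = 0.0461) and without the library labelled male Day 5 mouse 1 (1.12, adjusted p = 0.0378).

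Oasl2 (ENSMUSG00000029561, chromosome 5, 114896936-114912234, plus strand) encodes an oligoadenylate synthetase-like protein of the antiviral OAS family, and it was the only member called differentially expressed against Day 0 by the full rule. Its male CPM was 7.38, 6.20, 2.63 and 11.4 at Day 0, 13.5, 11.3, 9.12 and 24.9 at Day 2, 13.6, 10.5, 10.7 and 9.02 at Day 3, and 9.40, 18.1, 28.2 and 21.2 at Day 5. The Day 0 and Day 5 males overlapped, since the library labelled male Day 5 mouse 1 lay below Day 0 mouse 4. The rise at Day 5 was 1.55 (SE 0.452, adjusted p = 0.0403), just above the minimum of 1.5. With 1 mouse left out at a time it ran from 1.27 to 1.89, and the adjusted p, between 0.0159 and 0.122, passed in 3 of 8 fits, those that lacked mouse 3 or mouse 4 of the Day 0 males or the library labelled male Day 5 mouse 1. Its Day 3 difference passed in 1 of 8 such fits, that without Day 0 mouse 4 (1.03, adjusted p = 0.0486). Over 8 other settings the adjusted p of the Day 5 rise lay between 0.000102 and 0.0835 and passed in 7. In females the Oasl2 difference was 0.45, 0.56 and 0.80 at Day 2, 3 and 5, and none passed (adjusted p = 0.317, 0.205 and 0.244).

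Irf7 (ENSMUSG00000025498, chromosome 7, 141262706-141266481, minus strand) encodes the transcription factor that amplifies the interferon response in its own targets. Male CPM was 12.4, 15.3, 22.3 and 22.3 at Day 0 and 15.4, 27.2, 31.8 and 42.4 at Day 5, and only 3 of the 4 Day 5 mice exceeded the Day 0 range. The male Day 5 difference was 0.75 (interval 0.02 to 1.48, adjusted p = 0.128). The female one was 0.71 (interval 0.06 to 1.37, adjusted p = 0.284), from 18.0, 26.2, 20.1 and 11.3 CPM at Day 0 to 39.3, 32.7, 32.2 and 19.7 at Day 5, and without female Day 0 mouse 2 it was 0.92 (adjusted p = 0.403). Neither sex passed, and the difference between them was 0.02 (interval -0.93 to 0.97).

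Isg15 (ENSMUSG00000035692, chromosome 4, 156199424-156200818, minus strand) encodes a ubiquitin-like protein that is attached to other proteins, and Usp18 (ENSMUSG00000030107, chromosome 6, 121245906-121270917, plus strand) the protease that removes it and that also holds back the interferon receptor. Isg15 had 4.18, 4.35, 5.15 and 7.25 CPM in Day 0 males and 4.03, 15.6, 10.3 and 14.5 in Day 5 males. The library labelled male Day 5 mouse 1 was the lowest of these 8 values and the other 3 Day 5 mice were the highest. The difference was 1.14 (interval 0.22 to 2.06, adjusted p = 0.0777). Without that library it was 1.44 with an adjusted p of 0.00761, and over all 8 fits without 1 mouse the adjusted p ran up to 0.204. Usp18, the member with the lowest level per length, stayed between 2.26 and 7.14 CPM in all 32 libraries. All 4 of its Day 5 males lay above the Day 0 males (4.68 ± 1.31 against 3.13 ± 0.328 CPM, SD, n = 4), but the difference of 0.64 did not pass (adjusted p = 0.171).

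Rsad2 (ENSMUSG00000020641, chromosome 12, 26442746-26456452, minus strand) encodes viperin, an enzyme that makes a nucleotide which stops viral RNA synthesis. Its differences from Day 0 were small in both sexes. Its male means were 23.1 ± 3.92, 26.0 ± 2.79, 26.8 ± 3.80 and 20.2 ± 7.60 CPM at Day 0, 2, 3 and 5 (SD, n = 4), and its 6 differences from Day 0 lay between -0.18 and 0.21. Over the 32 libraries the correlation of its log2 CPM with the mean standardized level of the 9 members was -0.06, against 0.46 for Bst2, 0.54 for Ifit2, 0.68 for Oasl2 and 0.80 to 0.90 for the other 5. These correlations describe points that share days, sexes and library quality, and each member is part of the mean.

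Bst2 (ENSMUSG00000046718, chromosome 8, 71534255-71537456, minus strand) encodes tetherin, which holds budding viruses on the cell surface and is made by many cell types without infection. Its male CPM was 19.4, 26.2, 52.6 and 32.4 at Day 0, 21.5, 18.6, 19.0 and 14.7 at Day 3, and 22.3, 33.1, 27.4 and 48.9 at Day 5. Day 3 males had the lowest mean of the 8 groups, though they overlapped with Day 0 (difference -0.83, interval -1.50 to -0.16, adjusted p = 0.0676). Without male Day 0 mouse 1 it was -1.03 and passed (adjusted p = 0.0369). In females Bst2 stood at 38.3, 98.3, 51.6 and 21.7 CPM at Day 0, the highest value coming from mouse 2, the library with liver transcripts. The female differences of -0.86, -0.88 and -0.69 at Day 2, 3 and 5 did not pass, and without that mouse they were -0.34, -0.39 and -0.19. Without female Day 0 mouse 4, the lowest of the group, Bst2 fell by 1.12 at Day 2 and 1.14 at Day 3 (adjusted p = 0.0261 and 0.0457). In these fits 28.3 and 39.1% of all genes passed on p alone, against 1.93 and 5.54% with all mice.

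**Figure D2:**
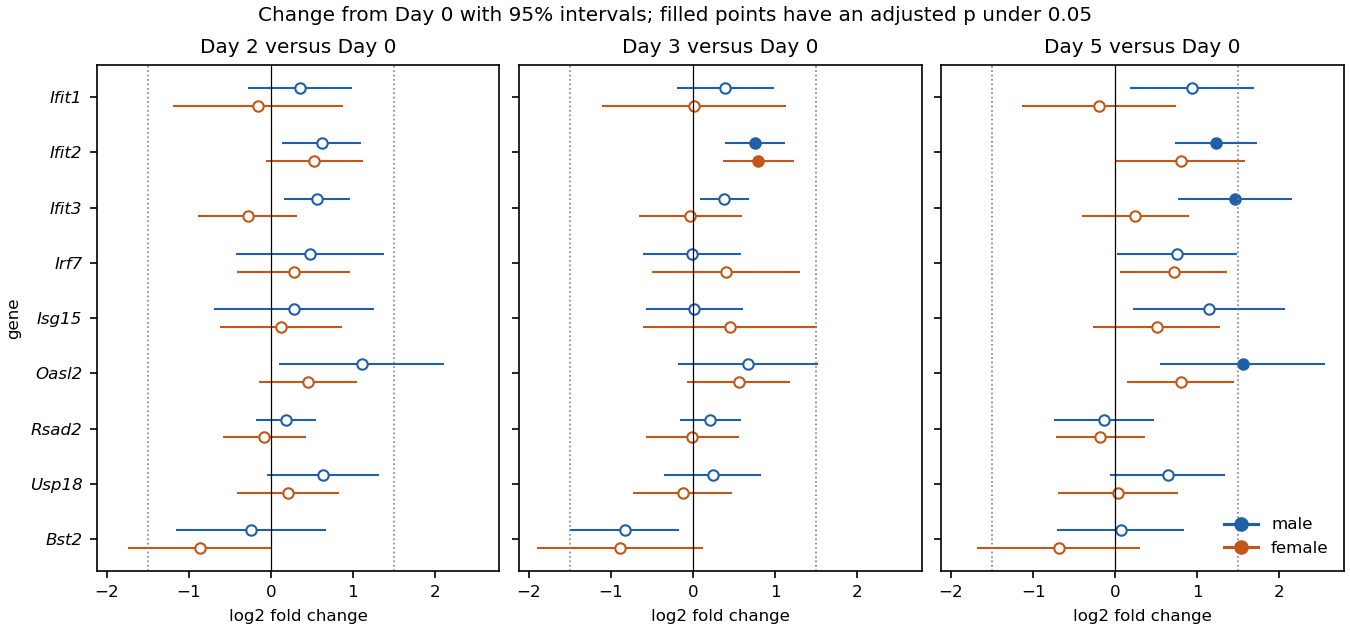
Log2 fold change of each gene from Day 0, at Day 2, 3 and 5, with its 95% interval from the quasi-likelihood fit (n = 4 mice per group), males in blue and females in orange. Filled points have an adjusted p under 0.05, dotted lines mark 1.5 in either direction, and the filled points are Ifit2 at Day 3 in both sexes and Ifit2, Ifit3 and Oasl2 in males at Day 5.

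The members were then counted in each comparison with Day 0, beside all genes. With edgeR in males at Day 2, 0 of 9 members were called by the full rule, where 0.716% of all genes were, and 0 passed on the adjusted p alone, where 3.16% did. Their median log2 difference was 0.48 (0.03 over all genes), and 3 members had an unadjusted p under 0.05. In males at Day 3, 0 of 9 were called (3.72% of all genes) and 1, Ifit2, passed on p alone (24.5% of all genes), with a median of 0.24. In males at Day 5, 1 of 9 was called (7.53%), 3 passed on p alone (19.2%), and the median was 0.94, against 0.04 over all genes. The ranges of the Day 0 and Day 5 males did not overlap for 3 of 9 members, Ifit2, Ifit3 and Usp18 (27.3% of all genes), so that members whose mice were fully separated were about as frequent as among all genes.

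The male Day 5 counts depended on the library whose Xist count goes against its label. It was the lowest Day 5 male for 7 of 9 members. Without it, 2 members were called (12% of all genes), Oasl2 at 1.79 and Ifit3 at 1.67, and 6 passed on p alone (26%), namely Ifit1, Ifit2, Ifit3, Irf7, Isg15 and Oasl2. Without male Day 0 mouse 4, Oasl2 alone was called (1.89, with 10.2% of all genes called), and Ifit3 alone was called once the male mouse 3 of Day 0 (1.51, 7.04% of all genes) or of Day 5 (1.56, 3.41% of all genes) was dropped. With any of the other 4 mice left out, 0 members and 3.28 to 4.21% of all genes were called.

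In females at Day 2, 0 of 9 members were called (1.41% of all genes) and 0 passed on p alone (1.93%). At Day 3, 0 were called (2.48%) and Ifit2 passed on p alone (5.54%). At Day 5, 0 were called (0.228%) and 0 passed on p alone (0.258%), with 3 members, Ifit2, Irf7 and Oasl2, at an unadjusted p under 0.05. The female medians were 0.13, 0.01 and 0.24 on the log2 scale. In the interaction test of day by sex, 0 members passed at Day 2, 3 or 5, where 0, 0.0114 and 0.231% of all genes were called, and the only members at an unadjusted p under 0.05 were Ifit3 at Day 2 and at Day 5. Voom with sample weights passed 4 members on p alone in the Day 5 interaction, Ifit1, Ifit3, Isg15 and Oasl2, with the male change the higher. Of 16907 genes, voom passed 2659 with a higher and 2835 with a lower male change.

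Between consecutive days, more members passed on p alone in the step from Day 3 to Day 5 in males than in any other. Ifit2 rose by 0.50, Ifit3 by 1.11, Isg15 by 1.14, Oasl2 by 0.89 and Bst2 by 0.92 (adjusted p = 0.0307, 0.0178, 0.0458, 0.0427 and 0.0165), and all 4 mice of Day 5 lay above all 4 of Day 3 for Ifit3 and Bst2, 2 of 9 members, where 41.5% of all genes were separated. That made 5 of 9 members on p alone, where 37.9% of all genes passed, and 0 by the full rule (9.64%). Leaving out 1 mouse at a time gave 0 to 7 members on p alone, the 7 without the library labelled male Day 5 mouse 1 (55.2% of all genes), and 0 to 3 without any other mouse (22.3 to 31.4% of all genes). In 1 fit over all 8 groups Ifit3 alone passed, and with no filter on low counts Ifit3 and Bst2 did. The fit over all 8 groups passed 2235 genes higher and 2453 lower of 18220, and that with no filter 2920 and 2613 of 29884. DESeq2's Wald test passed 6 members, with Irf7 added, and voom 6, with Ifit1 and Irf7 added and Ifit2 lost. Among all genes, DESeq2 passed 3684 higher and 3483 lower of 15654 and voom 4351 and 4298. From Day 2 to Day 3 and, in females, from Day 3 to Day 5, 0 members and 0 of all genes passed, with 0 members at an unadjusted p under 0.05.

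**Figure D3:**
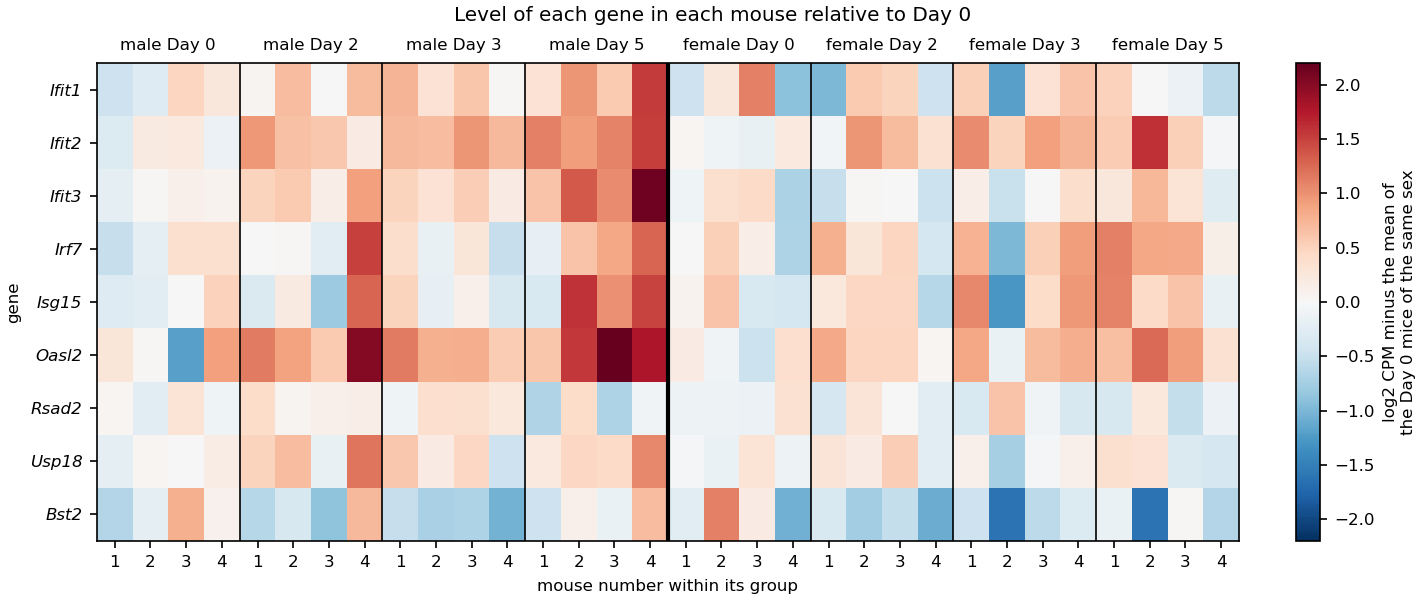
Log2 CPM of each gene in each mouse minus the mean of the Day 0 mice of the same sex, in columns for the 32 mice by sex and day, red for higher and blue for lower. Single mice stand out as columns: male Day 2 mouse 4, male Day 5 mouse 4 and female Day 3 mouse 2.

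In most groups 1 mouse was the highest or the lowest for most members. Male Day 2 mouse 4 was the highest of its group for 7 of 9 members, male Day 5 mouse 4 for 6, and female Day 3 mouse 2 was the lowest for 8. The lowest for 7 members were male Day 0 mouse 1, male Day 2 mouse 3, male Day 3 mouse 4, the library labelled male Day 5 mouse 1 and female Day 5 mouse 4, and male Day 3 mouse 1 was the highest for 6. The Day 0 and Day 2 females were more mixed: among the Day 0 females, mice 2, 3 and 4 were each the highest for 3 members, and mouse 4 was also the lowest for 5. In male Day 2 mouse 4, Irf7 reached 49.8 CPM against 14.9 to 17.8 in the other 3 mice, Isg15 12.4 against 2.89 to 5.89, Oasl2 24.9 against 9.12 to 13.5, and Bst2 50.3 against 16.4 to 24.0. In female Day 3 mouse 2, Isg15 stood at 2.50 CPM against 8.19 to 12.9, Irf7 at 9.09 against 26.2 to 34.5, Ifit1 at 3.91 against 11.2 to 13.9, and Rsad2, alone, was the highest at 25.6 against 12.9 to 15.6.

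Male Day 2 mouse 4 and female Day 3 mouse 2 also differed from their groups in tubule genes. Havcr1, the injured-tubule protein KIM-1, was looked up after the members' values were seen, as was Lcn2, the secreted injury marker NGAL. In male Day 2 mouse 4 Havcr1 was 63.6 CPM against 1.29 to 4.02 in the other 3, and Lcn2 28.9 against 3.31 to 9.45. The same mouse had 10886 summed CPM of 8 proximal tubule markers against 18533 to 22020, and 274 of 10 macrophage markers against 122 to 169. In female Day 3 mouse 2 Havcr1 was 3.84 CPM against 17.0 to 72.9, Lcn2 10.4 against 60.5 to 190.0, and the proximal tubule sum 12484 against 4252 to 5887. Its macrophage sum was 133 CPM, against 133 to 149. Male Day 5 mouse 4 lay within its group for both genes, with Havcr1 at 1.26 CPM and Lcn2 at 20.1. Their part in the members' levels was not tested.

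Males and females were compared at each day, the study's question on sex. By the full rule 0 of 9 members differed at Day 0, 2, 3 or 5, where 0.362, 0.813, 1.93 and 0.236% of all genes did, and on p alone 0 did as well (0.449, 1.47, 21.3 and 0.276%). Other tests passed some members on p alone. DESeq2's Wald test passed Rsad2 at Day 2 and Rsad2 and Bst2 at Day 3. DESeq2 passed 526 genes higher in males and 324 lower of 16608 at Day 2, and 2172 and 2139 of 16673 at Day 3. Voom with sample weights passed 3, 1, 2 and 4 members at Day 0, 2, 3 and 5. Among all genes it passed 2032 and 2004 of 16042, 1616 and 1540 of 16608, 3453 and 3626 of 16673, and 2260 and 2273 of 15237. With edgeR, Rsad2 came closest. Its CPM was 30.1, 23.8, 24.7 and 25.4 in Day 2 males against 12.7, 20.1, 16.4 and 14.0 in Day 2 females, 2 sets that did not overlap (8.96% of all genes did not). The difference was 0.70 (interval 0.32 to 1.08, adjusted p = 0.081), after 0.46 at Day 0, and it was 0.64 at Day 3 and 0.51 at Day 5 (adjusted p = 0.621, 0.0779 and 0.329). Usp18 was lower in all 4 Day 0 males than in all 4 Day 0 females (6.17% of all genes were separated), with a difference of -0.45 and adjusted p = 0.817.

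The Day 3 comparison of the sexes turned on female Day 3 mouse 2. Without it, 0 members were called by the full rule (3.18% of all genes) but 5 of 9 passed on p alone (34.6%), with Rsad2 higher in males by 0.93 and Bst2, Isg15, Irf7 and Ifit1 lower by a log2 difference of -0.88, -1.08, -0.79 and -0.47. With any other mouse left out, the adjusted p of Rsad2 was at least 0.0721 and that of Bst2 at least 0.127.

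Other genes of the pathway were read from lists. None of 21 interferon genes passed the filter on low counts in any comparison: Ifnb1 reached at most 2 counts in a library and Ifng, the type II interferon, at most 39. Of 13 receptor and signalling genes, 1 was called against Day 0, Ifnlr1, a receptor chain for type III interferon, which rose by 1.58 in females at Day 3 (adjusted p = 0.0465, 2.48% of all genes called). That call was kept in 1 of 8 fits without 1 mouse, the one without female Day 0 mouse 4, in which 11.4% of all genes were called. The receptor kinase genes Jak2 and Tyk2 rose by 0.52 and 0.50 in males at Day 3, and Irf9 rose by 0.71 in males at Day 5, all on p alone, and passed in 6, 2 and 2 of 8 fits without 1 mouse. Of the nucleic acid sensors and adaptors, 14 to 16 could be tested against Day 0 and 0 were called, where 0.228 to 7.53% of all genes were. Ddx58, which encodes the RNA sensor RIG-I, rose in males by 1.01 at Day 2 and 0.92 at Day 3 on p alone (adjusted p = 0.0481 and 0.0153), in 2 and 6 of 8 fits without 1 mouse. Ifih1, which encodes the RNA sensor MDA5, rose by 0.45 in males at Day 3 (adjusted p = 0.0466, kept in 1 of 8 fits), and Ticam1, which encodes the adaptor TRIF, fell by 0.76 in males at Day 5 (adjusted p = 0.038, kept in 3 of 8).

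In a list of 49 other interferon-induced genes, 5 rose and 5 fell on p alone in males at Day 3, out of 48 tested, a share near the 24.5% of all genes that passed. Ifi27l2a, which encodes a small interferon-induced membrane protein, fell the furthest, by 2.65 (adjusted p = 0.0131), from 66.9 ± 47.3 to 10.7 ± 0.415 CPM (SD, n = 4). The immunoproteasome genes Psmb8 and Psmb9 fell by 1.34 and 1.05, whereas Adar and Eif2ak2, which encode enzymes acting on double-stranded RNA, rose by 0.72 and 0.87. Ube2l6, the conjugating enzyme for ISG15, fell by 0.81 (adjusted p = 0.0251). With 1 mouse left out at a time, Ifi27l2a passed in 7 of 8 fits, Psmb8 and Psmb9 in 4 each, Adar and Ube2l6 in 3 each and Eif2ak2 in 2. At Day 5, 3 of 47 were called, near the 7.53% of all genes, and all 3 were higher: Oas1b by 1.77, Ube2l6, the opposite of its Day 3 change, by 1.67, and Ifit3b by 1.56 (adjusted p = 0.0432, 0.0341 and 0.012). With 1 mouse left out at a time, Ifit3b passed on p alone in 8 of 8 fits, Ube2l6 in 2 and Oas1b in 1. On p alone 5 of the 47 rose and 2 fell at Day 5, where 19.2% of all genes passed. Gbp3, a guanylate-binding protein gene, rose by 1.10 and Sp100, a nuclear body gene, by 1.11 (adjusted p = 0.018 and 0.0421, kept in 3 and 2 of 8 fits). Trim25, which encodes a ubiquitin ligase acting on RIG-I, fell by 0.93 and Irgm1, an immunity-related GTPase gene, by 0.72 (adjusted p = 0.0134 and 0.0167, kept in 8 and 5 of 8). Without the library labelled male Day 5 mouse 1 the rises were 2.06 for Oas1b, 1.99 for Ube2l6 and 1.74 for Ifit3b. In females 1 gene of the list was called in any comparison with Day 0, Psmb8, which fell by 1.53 at Day 3 (adjusted p = 0.048). It kept that call in 1 of 8 fits without 1 mouse, and its difference was -1.20 without female Day 0 mouse 2. The list's median in males was 0.32, 0.14 and 0.37 at Day 2, 3 and 5, beside the members' 0.48, 0.24 and 0.94.

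The chemokines Cxcl9 and Cxcl10, both induced by interferon gamma and both ligands of CXCR3, moved apart. In females Cxcl10 rose from 2.36 ± 0.799 CPM at Day 0 to 13.9 ± 6.60 at Day 2 and 15.9 ± 9.34 at Day 3 (log2 difference 2.56 and 2.73, adjusted p = 0.022 and 0.0478). Over the same days Cxcl9 fell from 3.33 ± 1.90 to 0.669 ± 0.331 and 0.481 ± 0.306 CPM (log2 difference -2.32 and -2.80, adjusted p = 0.0498 and 0.0465). These 4 female differences kept their direction in every fit without 1 mouse, but the calls held in 3 of 8 fits for Cxcl10 at Day 2 and in 2 of 8 for the other 3. Without female Day 0 mouse 2 none of the 4 passed. In males at Day 3 Cxcl9 fell by 1.88 and Cxcl10 rose by 1.28, the latter on p alone (adjusted p = 0.0111 and 0.0146), in 7 and 5 of 8 such fits. Cxcl9 stood at low counts, between 8 and 220 in females of Day 0, 2 and 3.

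Ranked over 18220 genes by the correlation of log2 CPM with the mean standardized level of the members, the 10 genes most like them over the 32 libraries were Ifit3b (r = 0.85), Relb, Anxa3, Pdlim7, Irf9, Tmem158, Irf1, Jak3, Plac8 and Serpine2 (r = 0.76). Over the 16 libraries of Day 2 and Day 3 the leading gene was Xaf1 (r = 0.91), and only Ifit3b and Plac8 were shared between both lists of 10. The points share library quality, day and sex.

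Markers of other cell types also changed. In the 4 male Day 5 libraries the sum of 7 neutrophil markers was 11.2, 228, 96.7 and 40.2 CPM, against 1.41 to 2.30 in Day 0 males. All 3 markers tested were called higher, with S100a8 up by 6.04 on the log2 scale, where 7.53% of all genes were called. The macrophage sum was 105 to 350 CPM against 157 to 270 at Day 0, with 0 of 10 markers called, and 3 of 8 proximal tubule markers were called lower. Erythroid genes, which follow the blood left in the kidney, were called lower for 5 of 5 in males at Day 3 (3.72% of all genes called). Of the 4 male Day 5 libraries, that of mouse 1 had the lowest neutrophil sum and was the lowest for 7 members, whereas mouse 4, the highest for 6 members, had a lower sum than mice 2 and 3. The part of these cells and of the mitochondrial share in the members' change was not tested. With the mitochondrial genes removed before scaling, the male Day 5 comparison still called 1 member, and Ifit2, Ifit3 and Oasl2 still passed on p alone.

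**Figure D4:**
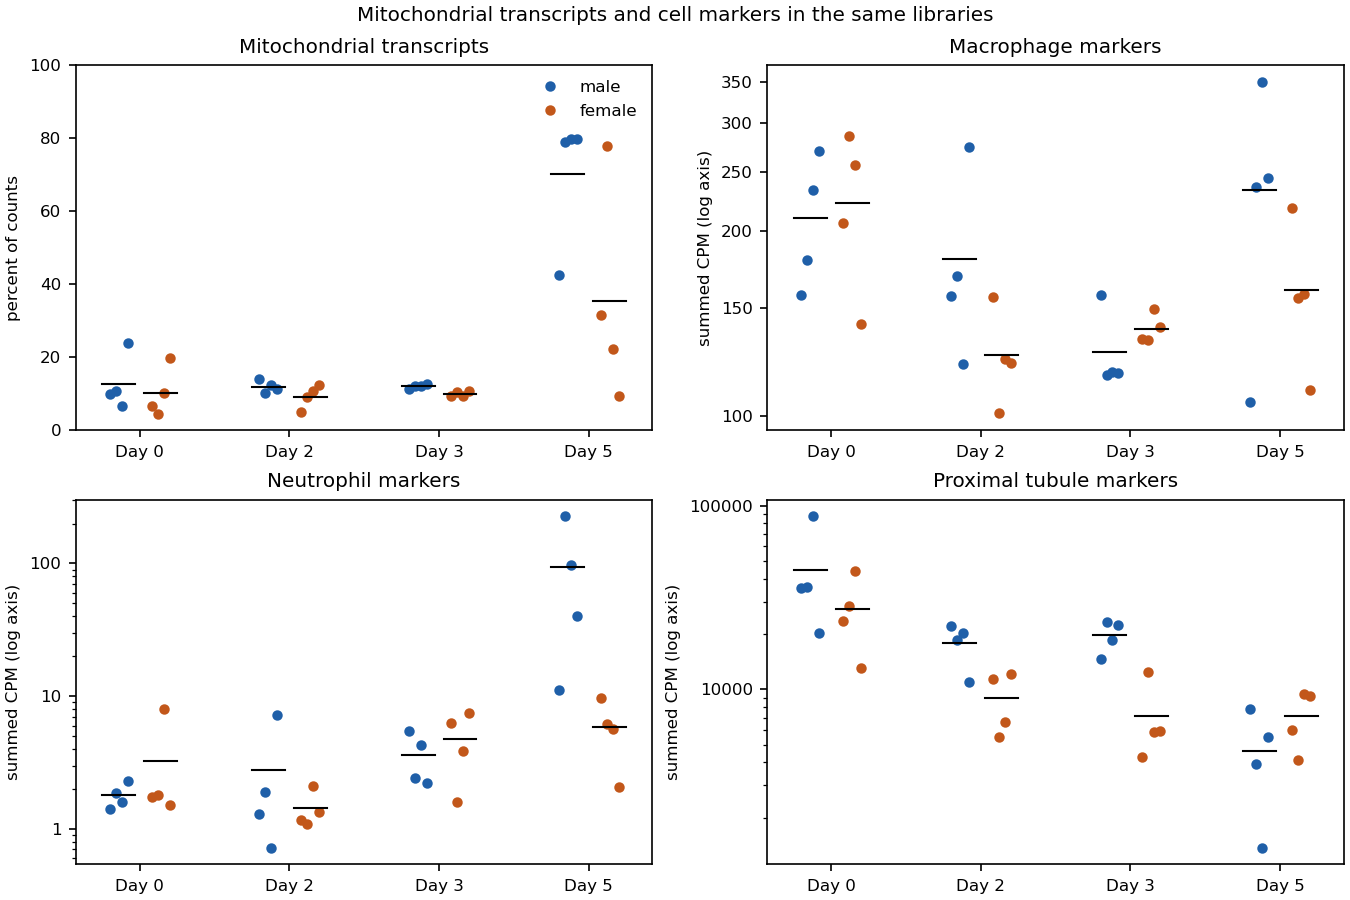
Mitochondrial share of the counts (percent, linear axis) and summed CPM of 10 macrophage, 7 neutrophil and 8 proximal tubule markers (log axes) in each of the 32 libraries, by day and sex, with a bar at the mean of 4. Male Day 5 libraries have 42.5 to 79.8% mitochondrial counts and the highest neutrophil sums, 11.2 to 228 CPM.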

How the data were processed

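Gene counts and FPKM were deposited by the authors for 32 libraries of paired 150 base reads. The deposited counts are raw whole numbers per gene, made with HTSeq according to the submitters' processing notes, and the deposited FPKM divide them by gene length and an effective library size close to TMM's, not the library total. The notes name GRCm39, the study's methods name GRCm38, and the coordinates in the table equal those of the GRCm38 annotation for 53499 of 54409 matched genes, so GRCm38 is used here.

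The rule for calling a gene is the study's; its DESeq2 fit is an alternative here. Counts were tested with edgeR 4.0.16 (TMM, filterByExpr, robust quasi-likelihood F test, R 4.3.3), each contrast fitted on its own groups, with Benjamini-Hochberg adjustment over all genes tested. Day 2, 3 and 5 were compared with Day 0 and consecutive days with each other within each sex, the sexes within each day, and day by sex as an interaction. Intervals are 95% and use the fit's degrees of freedom. Alternatives used DESeq2 1.42.0, limma 3.58.1 (voom with sample weights), other filters, 1 fit over 8 groups, a block on the mouse number, no mitochondrial genes, and each mouse left out in turn. Genes named outside the 9 are those of the other lists that passed a threshold, and the 10 most correlated. Havcr1 and Lcn2 were added later. The members and lists were chosen with earlier results of these data known. The scripts were tested on simulated counts. No 2 libraries were identical (0 pairs). One item of the signalling list is not reported here.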

Additional observations from a re-analysis of the deposited data

Results flagged for a closer look

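In 4 of 72 sets of 4 mice (9 genes in 8 groups), 1 mouse stood apart from the other 3 by Dixon's gap test at the 95% level. Chance gives about 1 in 20 such sets, so 4 of 72 is close to what chance gives. Irf7 in male Day 2 mouse 4 was 49.8 CPM, with the other 3 mice between 14.9 and 17.8, in the library that was highest for 7 of 9 members. Oasl2 in female Day 3 mouse 2 was 6.85 CPM, with the others between 12.2 and 13.7, in the library that was lowest for 8 of 9 members. Ifit2 in male Day 3 mouse 3 was 17.0 CPM against 13.9 to 14.2, and Rsad2 in female Day 0 mouse 4 was 20.9 CPM against 15.1 to 15.3.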

How the results depend on the processing

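Of the 17 counts of members called, only that of males at Day 5 was above 0, and 4 of its 9 alternatives moved it. On the adjusted p alone 1 member passed in males at Day 3, 3 in males at Day 5, 5 from Day 3 to Day 5 in males and 1 in females at Day 3. These counts depended on the test. In males at Day 2, 3 and 5, DESeq2's Wald test passed 1, 3 and 5 members and voom with weights 5, 6 and 8. Among all genes, DESeq2 passed 1310 higher and 1616 lower of 16051, 2597 and 2992 of 15908, and 2035 and 2213 of 14969. Voom passed 3722 and 3724, 4639 and 4442, and 4165 and 4032 of the same genes. In females DESeq2 passed 0, 1 and 0 members and voom 2, 2 and 0. There DESeq2 passed 694 genes higher and 1452 lower of 16541, 1261 and 2368 of 17065, and 283 and 459 of 16260. Voom there passed 4206 and 4063, 4007 and 4145, and 1392 and 1678. In 1 fit over 8 groups Oasl2 passed in males at Day 2 and Ifit2 in females at Day 5. In males at Day 5, 0 members were called in 1 fit over 8 groups (Oasl2 at 1.47, under the minimum) and 0 with a replicate block on the mouse number, against 3 with voom and sample weights, which also called 1 from Day 3 to Day 5; voom with weights raised the calls over all genes as well. Leaving out 1 mouse gave 0 to 2 members called in males at Day 5 and 0 in each other comparison. The mouse numbers did not pair every library in any comparison. In 0 of 14 comparisons did every pair's correlation exceed 0.1 (range -0.42 to 0.48), and in 0 of 14 did all 8 libraries correlate best with their own number. Between the sexes at Day 0, however, 6 of 8 libraries correlated best with their own number. There the block changed the genes passing on p alone from 38 higher and 34 lower in males to 131 and 79. The block ended the calls on p alone of Oasl2 in males at Day 5, of Ifit2 at Day 3 in both sexes, and of Ifit2, Isg15 and Oasl2 from Day 3 to Day 5 in males, and let Rsad2 pass between the sexes at Day 3 (adjusted p = 0.0202). Of 528 alternatives to single log2 differences, 17 turned the sign, to values from -0.0023 to 0.47 that did not pass: Irf7 in males at Day 3 (0.024, 0.0094 and 0.24), Isg15 in males at Day 3 (-0.0023), Rsad2 in males at Day 5 (0.30), Ifit1 and Rsad2 in females at Day 2 (0.47 and 0.15), Ifit3, Rsad2 and Usp18 in females at Day 3 (0.0013 for Ifit3, 0.0094, 0.0094, 0.025, 0.019, 0.0092 and 0.014 for Rsad2, 0.022 for Usp18), and Ifit1 and Usp18 in females at Day 5 (0.16 and -0.0010). Without 1 mouse, 36 of 544 turned the sign, over 15 results. The ranges in males were -0.11 to 0.66 for Irf7, -0.28 to 0.52 for Isg15 and -0.71 to 0.069 for Bst2 at Day 2, -0.17 to 0.13 for Irf7 and -0.16 to 0.22 for Isg15 at Day 3, and -0.40 to 0.012 for Rsad2 and -0.19 to 0.41 for Bst2 at Day 5. In females they were -0.39 to 0.37 for Ifit1 and -0.21 to 0.054 for Rsad2 at Day 2, -0.23 to 0.50 for Ifit1, -0.21 to 0.11 for Ifit3, -0.28 to 0.12 for Rsad2 and -0.20 to 0.043 for Usp18 at Day 3, and -0.43 to 0.30 for Ifit1 and -0.10 to 0.15 for Usp18 at Day 5. The 10 genes most like the members shared 2 with those from the Day 2 and Day 3 libraries. The cause of these changes was not tested. With 4 mice a group, the intervals given bound what could be detected.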
